A study of Homo sapiens with 27 samples.

Results

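The genes described here are the AP-1 transcription factors FOS, FOSB, FOSL1, FOSL2, JUN, JUNB, JUND and ATF3, together with the zinc-finger transcription factor EGR1. They were taken by gene symbol from the deposited table, not by any measured value, and make up 9 of its 36536 genes after rows sharing a symbol were summed. Each had a row of its own, and all 9 passed the filter on low counts, as did 15575 genes in all. Polyadenylated RNA was sequenced from MCF10A, an established non-tumorigenic line of human breast epithelium, in 27 libraries that form 9 groups of 3. Every group, controls included, had been grown with serum, 20 ng/ml EGF (epidermal growth factor), hydrocortisone, cholera toxin and insulin, replated on collagen-coated plastic, and kept for 18 h in medium free of growth factors. T0 cells were collected then, at 0 h. The other groups were collected after a further 24 h with phosphate-buffered saline (PBS, the vehicle control), EGF, OSM (oncostatin M, an interleukin-6-type cytokine), transforming growth factor beta (TGFB), EGF+OSM, EGF+TGFB, OSM+TGFB or EGF+OSM+TGFB, with each ligand at 10 ng/ml. The series asks whether the response to combined ligands is the sum of the responses to single ligands.

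AP-1 is a family of dimers: FOS-family proteins pair with JUN-family proteins, JUN-family proteins also pair with each other, and ATF3 pairs mainly with JUN-family proteins. The dimers bind the TPA response element and, for some pairs, the cAMP response element, and act downstream of MAP kinases on genes of proliferation, migration and wound repair in epithelial cells. FOS and EGR1 are classic immediate early genes, switched on by growth factors through serum response factor (SRF) at CArG boxes, whereas FOSL1 is a delayed gene that is itself a target of AP-1. EGF signals through its receptor to the ERK MAP kinases, OSM through gp130 to JAK kinases and STAT3, and TGFB through its receptor kinases to SMAD factors.

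Library totals ranged from 30.1 M to 52.9 M counts (M, mega), with a median of 39.5 M, and the lowest count of any of the 9 genes in a library was 10, for FOSB. Levels below are CPM, counts divided by library size in M with TMM scaling (trimmed mean of M-values), as mean ± SD with n = 3 libraries. The labels do not say that the 3 libraries of a group came from separate cultures, so p-values measure the spread between libraries, which may be technical. In bulk RNA, fewer cells that express a gene and less of its RNA per cell cannot be told apart. All 9 of 9 basal mammary markers, KRT5, KRT14 and TP63 among them, averaged over 1 CPM, and their summed level ran from 11788 to 13309 CPM in PBS libraries and from 28990 to 30925 CPM in OSM+TGFB libraries, the group in which JUN and JUNB were also highest. Of 7 fibroblast markers, COL1A1 and DCN averaged over 1 CPM, while COL1A2, COL3A1, PDGFRA and LUM stayed at or below 0.453 CPM in every library and PDGFRB reached at most 1.04 CPM. The fibroblast sum was highest in TGFB (204 to 214 CPM) and lowest in EGF+OSM (13.1 to 15.3 CPM), the groups in which ATF3 was also highest and lowest. Of 7 leukocyte and endothelial markers, CD68 and CD14 averaged over 1 CPM, VWF reached at most 3.52 CPM, PECAM1 2.06, PTPRC 0.225, and both CDH5 and CD3E at most 0.144. Their sum was highest in OSM (97.8 to 121 CPM), where FOS was also highest, and lowest in EGF (26.9 to 30.5 CPM), where FOSL2 and JUNB were also lowest. Of 6 luminal markers, 4 averaged over 1 CPM, ESR1 reached at most 3.42 CPM and PGR 0.0313. Their sum was highest in EGF+OSM+TGFB (1064 to 1125 CPM), where FOSB and EGR1 were lowest, and lowest in OSM (387 to 408 CPM). The part of these marker levels in the results below was not tested.

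Promoter windows of 300 bases across the start of transcription, from RefSeq on GRCh38.p14, were matched for 8 of the 9 genes, all but FOSL1. They were searched on both strands for the TPA response element (TGACTCA), the cAMP response element (TGACGTCA), both forms of the EGR site (GCGTGGGCG and GCGGGGGCG), a STAT-type palindrome (TTCNNNGAA) and the CArG box, and, added after those, for TGACATCA, a form intermediate between the TPA and cAMP elements. The stretches that hold matches upstream of the start are printed 5′ to 3′ on the gene's own strand, with the matches in capitals, because they show which of the elements named above lie next to genes of this set. JUN is at chr1:58784092-58784129, minus strand, with TGACATCA at -67 to -60 from the start. JUND is at chr19:18281800-18281837, minus strand, with TGACGTCA at -200 to -193. ATF3, from the first of its 2 windows, is at chr1:212565269-212565306, plus strand, with TGACATCA at -123 to -116. Counts per gene do not show which of its 2 starts was used. EGR1 is at chr5:138465236-138465420, plus strand, with a STAT-type palindrome at -228 to -220 and CArG boxes at -105 to -96 and -83 to -74.
JUN: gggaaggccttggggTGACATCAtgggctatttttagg
JUND: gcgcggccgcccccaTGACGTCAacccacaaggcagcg
ATF3: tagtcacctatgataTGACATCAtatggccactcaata
EGR1: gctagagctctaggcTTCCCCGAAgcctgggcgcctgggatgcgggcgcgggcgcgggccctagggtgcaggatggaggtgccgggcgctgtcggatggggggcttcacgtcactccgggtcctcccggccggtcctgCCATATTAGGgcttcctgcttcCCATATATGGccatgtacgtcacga

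FOSL2 held TGACTCA at bases 5 to 11 after its start. The windows of FOS, FOSB and JUNB and the second window of ATF3 held no match. Sites outside these windows were not searched, so a missing match does not mean that a gene lacks the element. No printed match overlapped another. For comparison, of all 35116 promoter windows of this length, 4.95% held the TPA response element, 1.85% the cAMP response element, 2.61% TGACATCA, 7.66% the STAT-type palindrome and 1.29% a CArG box. The EGR site was found in no window of the 8 genes, and in 0.795% (GCGTGGGCG) and 5.07% (GCGGGGGCG) of all windows. These are matches of letters and say nothing of binding in these cells.

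**Figure D1:**
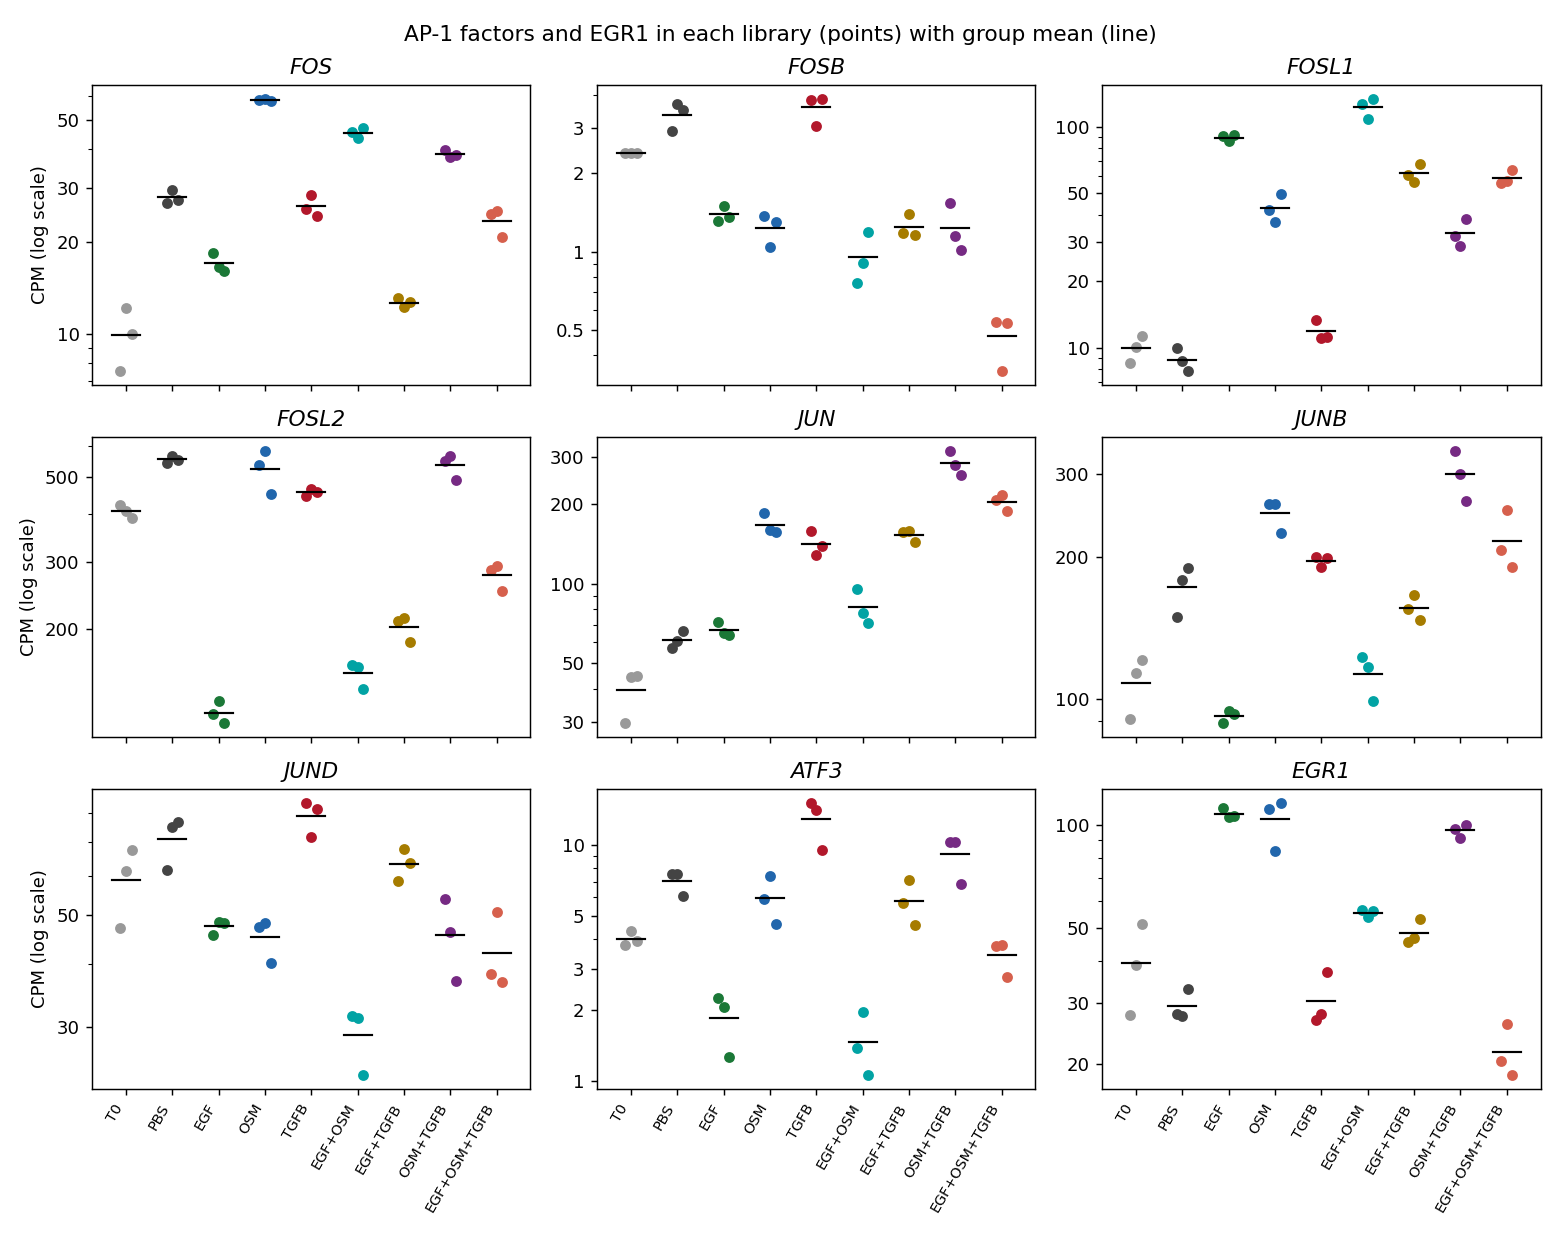
Level of each gene in each library (points; CPM on a log scale that differs between panels) with the group mean (line), for the 9 groups of 3 libraries. The 3 libraries of a group lie close together compared with the distance between most groups for FOS. FOSL1 and FOSL2 overlap between some neighbouring groups, but for both the groups given EGF do not overlap those without it. ATF3 and JUND overlap between several groups.

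The 9 genes spanned different ranges over the 9 groups. FOSL1 had the widest, with group means that differed 13.9-fold between EGF+OSM and PBS, and JUND the narrowest, 2.73-fold between TGFB and EGF+OSM. The ranges of the others were 8.81-fold for ATF3, 7.58-fold for FOSB, 7.23-fold for JUN, 5.87-fold for FOS, 4.97-fold for EGR1, 4.58-fold for FOSL2 and 3.25-fold for JUNB. The plot of levels by library shows that no 2 of the genes had the same order of groups.

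Divided by the length of the canonical transcript, the levels within a family can be set side by side. The shares depend on these lengths, which are 1702 bases for FOSL1 and 6713 for FOSL2. Counts per gene do not show which transcript forms were present. In CPM not divided by length, FOSL1 stayed below FOSL2 in every group. In PBS, FOSL2 made up 81.0% ± 0.536 of the summed FOS-family level per kilobase, FOS 13% ± 0.392, FOSL1 5.11% ± 0.671 and FOSB 0.872% ± 0.0919. In EGF, FOSL1 made up 66.5% ± 1.81 and FOSL2 22.9% ± 1.70, and in EGF+OSM 61.8% ± 2.85 and 19.6% ± 2.46. The FOSL1 share ranged from 4.57% to 5.86% over the PBS libraries and from 64.6% to 68.3% over the EGF libraries. With TGFB present as well, the FOSL1 share was 49.7% ± 3.90 in EGF+TGFB and 39.7% ± 3.80 in EGF+OSM+TGFB. FOSL2 had the largest mean share in EGF+OSM+TGFB (47.3% ± 2.76) and in the 5 groups without EGF. In EGF+OSM+TGFB the lowest FOSL2 share and the highest FOSL1 share of a library were both 44.1%. The lowest mean share of FOSL2 in the 5 groups without EGF was 59.4% ± 4.77, in OSM. The summed FOS-family level itself moved less, from 71.8 ± 1.41 CPM per kilobase in T0 to 131 ± 6.55 in OSM, with 102.0 ± 2.29 in PBS and 78.9 ± 1.28 in EGF.

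In the JUN family, JUNB held the largest share per kilobase in every group, from 51.7% ± 0.552 in EGF+TGFB to 64.5% ± 1.07 in OSM. The share of JUN was 12.6% ± 0.731 in PBS and lay between 21.5% ± 1.59 (EGF) and 32.0% ± 0.691 (OSM+TGFB) in the ligand groups. JUND made up 24.6% ± 0.430 in PBS and 8.57% ± 0.566 in OSM+TGFB. The summed JUN-family level was 95.5 ± 1.18 CPM per kilobase in EGF, 149.9 ± 16.8 in PBS and 275 ± 33.5 in OSM+TGFB. JUNB shares 259 exonic bases with HOOK2 on the opposite strand. The library kit keeps strand, but whether the counting used it is not given in the sources used here, and HOOK2 was at 6.27 to 18.4 CPM, so the JUNB level is uncertain to that extent.

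**Figure D2:**
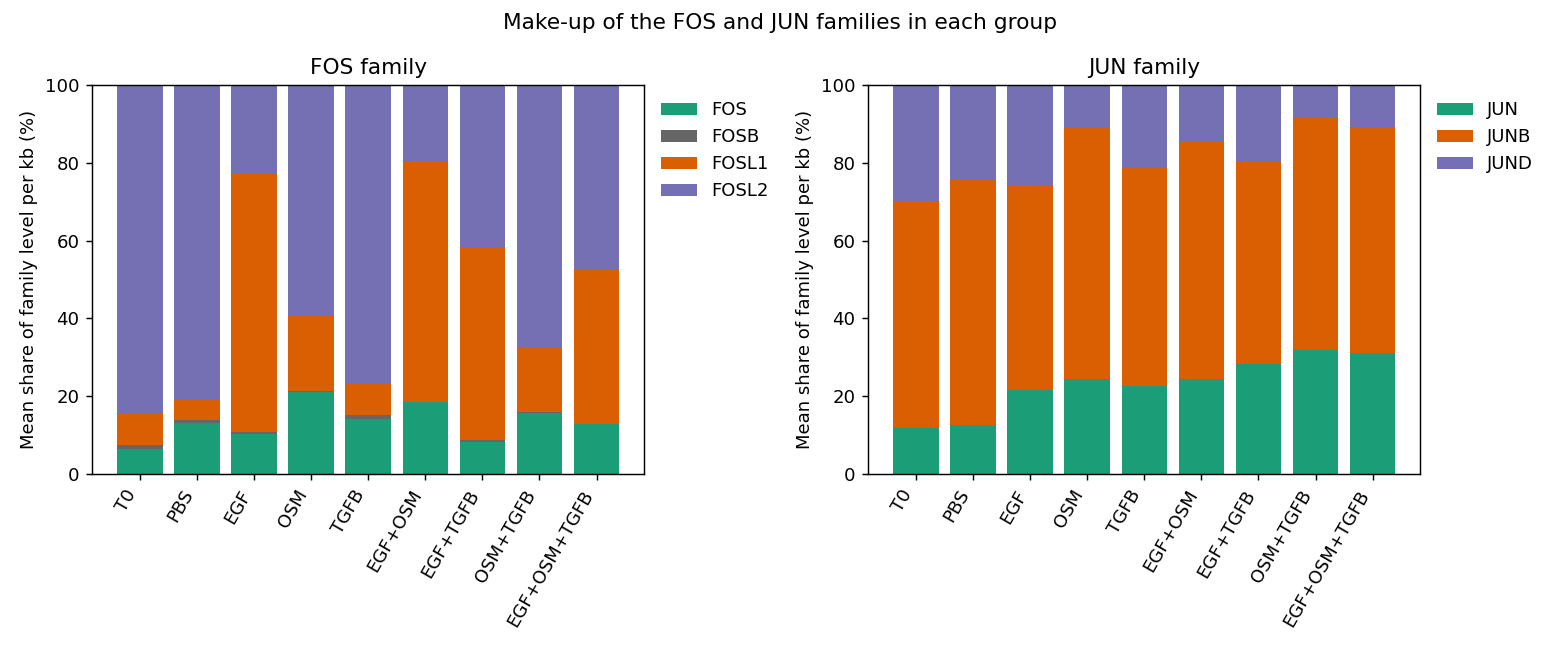
Mean share (%) of each gene in the summed level per kilobase of its family, FOS family on the left and JUN family on the right, in the 9 groups. FOSL1 takes the largest mean FOS-family share in EGF (66.5%), EGF+OSM (61.8%) and EGF+TGFB (49.7%), FOSL2 in the other 6 groups, and JUNB the largest JUN-family share in all 9. In EGF+OSM+TGFB the lowest FOSL2 share and the highest FOSL1 share of a library are both 44.1%.

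FOS, the prototype partner of JUN proteins (ENSG00000170345, chr14:75278826-75282230, plus strand, 4 exons, GENCODE v44 on GRCh38), was highest in OSM, with libraries at 58.1, 58.6 and 57.7 CPM, against 26.8, 29.6 and 27.4 CPM in PBS. EGF libraries stood at 18.3, 16.5 and 16.1 CPM. OSM therefore lay above and EGF below PBS with no overlap. The order of group means ran from OSM (58.1 ± 0.487 CPM) through EGF+OSM (45.3 ± 1.66), OSM+TGFB (38.7 ± 1.13), PBS (27.9 ± 1.47), TGFB (26.1 ± 2.16), EGF+OSM+TGFB (23.4 ± 2.42), EGF (16.98 ± 1.16) and EGF+TGFB (12.7 ± 0.424) to T0 (9.90 ± 2.31). Neighbours in that order overlapped only between PBS and TGFB and between TGFB and EGF+OSM+TGFB.

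FOSB, a FOS-family factor known for its stable splice form deltaFosB (ENSG00000125740, chr19:45467995-45475179, plus strand, 4 exons), was the least abundant of its family. It stood at 3.36 ± 0.410 CPM in PBS and 3.59 ± 0.466 in TGFB, which overlapped, and at 2.40 ± 0.00380 in T0. In EGF (1.39 ± 0.0946), EGF+TGFB (1.25 ± 0.130), OSM+TGFB (1.24 ± 0.275), OSM (1.24 ± 0.170) and EGF+OSM (0.951 ± 0.218) each neighbour overlapped the next, and all 15 libraries lay below every PBS library. EGF+OSM+TGFB was lowest at 0.473 ± 0.108 CPM, from 22, 10 and 17 counts, and overlapped no other group. The deposited values do not separate the splice forms.

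FOSL1, which encodes FRA-1 and is linked to migration of epithelial cells (ENSG00000175592, chr11:65892049-65900573, minus strand, 4 exons), had PBS libraries at 10.0, 8.72 and 7.87 CPM. The EGF libraries stood at 91.0, 85.7 and 91.2 CPM and the OSM libraries at 41.8, 36.9 and 49.5 CPM. EGF+OSM was the highest group, at 127, 109 and 134 CPM. Below EGF+OSM (123 ± 13.1) and EGF (89.3 ± 3.13) came EGF+TGFB (61.6 ± 5.78) and EGF+OSM+TGFB (58.7 ± 4.41), which overlapped, then OSM (42.7 ± 6.31) and OSM+TGFB (33.0 ± 4.66), which overlapped, and last TGFB (11.9 ± 1.33), T0 (10.0 ± 1.41) and PBS (8.86 ± 1.08), where each overlapped the next. The 4 groups given EGF were the 4 highest.

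FOSL2, which encodes FRA-2 (ENSG00000075426, chr2:28392448-28417317, plus strand, 4 exons), ran the other way. Its PBS libraries held 543, 567 and 554 CPM and its EGF libraries 119.9, 129.5 and 114 CPM. PBS (555 ± 11.9), OSM+TGFB (535 ± 39.1), OSM (524 ± 67.5) and TGFB (455 ± 9.76) formed the top of the order, each overlapping the next, above T0 (406 ± 14.9). The 4 groups given EGF were the 4 lowest, with no overlap between neighbours: EGF+OSM+TGFB (276 ± 21.8), EGF+TGFB (203 ± 15.8), EGF+OSM (153 ± 12.2) and EGF (121 ± 8.02). The ratio of FOSL1 to FOSL2 counts was 0.0160 ± 0.00218 in PBS, 0.741 ± 0.0723 in EGF, 0.811 ± 0.142 in EGF+OSM, 0.307 ± 0.0540 in EGF+TGFB and 0.214 ± 0.0340 in EGF+OSM+TGFB.

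JUN, the founding AP-1 subunit and a strong activator (ENSG00000177606, chr1:58776845-58784048, minus strand, 1 exon), held 57.2, 60.4 and 66.0 CPM in the PBS libraries. OSM libraries held 184, 159.9 and 156 CPM, TGFB libraries 158, 129 and 138 CPM, and OSM+TGFB libraries 319, 282 and 259 CPM. OSM+TGFB (286 ± 30.3) and EGF+OSM+TGFB (204 ± 14.2) stood above all others without overlap. OSM (167 ± 15.3), EGF+TGFB (153 ± 7.97) and TGFB (142 ± 15.03) overlapped in turn, as did EGF+OSM (81.2 ± 12.7), EGF (66.9 ± 4.29) and PBS (61.2 ± 4.44), and T0 was lowest at 39.6 ± 8.58. All 12 libraries with TGFB held more JUN than any PBS library.

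JUNB, a weaker activator that can restrain JUN (ENSG00000171223, chr19:12791486-12793315, plus strand, 1 exon), was highest in OSM+TGFB (299.7 ± 36.4) and OSM (248 ± 19.7). EGF+OSM+TGFB followed at 217 ± 31.8, overlapping OSM above and TGFB (197 ± 5.05) below. PBS (173 ± 20.8) overlapped EGF+TGFB (156 ± 9.67). The lowest groups were EGF+OSM (113 ± 12.5), T0 (108 ± 15.7) and EGF (92.2 ± 2.81), each overlapping the next. JUN and JUNB thus shared their highest group but not their lowest.

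JUND, a JUN protein abundant in quiescent cells (ENSG00000130522, chr19:18279694-18281622, minus strand, 1 exon), varied least. From TGFB (79.0 ± 6.44) through PBS (71.0 ± 8.28), EGF+TGFB (63.3 ± 4.62), T0 (58.7 ± 10.4), EGF (47.5 ± 1.51), OSM+TGFB (45.7 ± 8.38) and OSM (45.2 ± 4.41) to EGF+OSM+TGFB (42.0 ± 7.72), every neighbour overlapped the next. EGF+OSM alone stood apart, with libraries at 31.5, 31.3 and 24.0 CPM.

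ATF3, a stress-induced factor that often represses (ENSG00000162772, chr1:212565334-212620777, plus strand, 4 exons), was highest in TGFB, at 15.1, 14.1 and 9.53 CPM, and lowest in EGF+OSM, at 1.38, 1.96 and 1.06 CPM. PBS libraries held 7.53, 7.57 and 6.09 CPM. TGFB (12.9 ± 2.98), OSM+TGFB (9.15 ± 1.99), PBS (7.06 ± 0.846), OSM (5.97 ± 1.36) and EGF+TGFB (5.78 ± 1.25) overlapped in turn. Replicate 3 was the lowest library of each of these groups (9.53, 6.85, 6.09, 4.64 and 4.59 CPM in that order). Within each replicate number the groups kept this same order without exception, although the labels do not say that the numbers pair libraries. T0 (4.02 ± 0.290), EGF+OSM+TGFB (3.42 ± 0.574) and EGF (1.86 ± 0.519) did not overlap, whereas EGF and EGF+OSM (1.47 ± 0.453) did. The level was low (42 to 52 counts in the poorest libraries of EGF+OSM and EGF), and the coefficient of variation between libraries of a group was the largest of the set, with a median of 21.7%.

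EGR1, a GC-box-binding immediate early factor that is not part of AP-1 (ENSG00000120738, chr5:138465479-138469303, plus strand, 2 exons), held 28.0, 27.5 and 33.1 CPM in the PBS libraries. EGF libraries held 112, 106 and 106 CPM and OSM libraries 111, 83.9 and 116 CPM, so that the single ligands overlapped each other and both cleared PBS. With both ligands together the libraries held 56.4, 53.7 and 55.8 CPM, and with all 3 ligands 20.4, 26.1 and 18.5 CPM. The order ran EGF (108 ± 3.53), OSM (104 ± 17.4), OSM+TGFB (96.2 ± 4.07), EGF+OSM (55.3 ± 1.45), EGF+TGFB (48.3 ± 3.97), T0 (39.3 ± 11.7), TGFB (30.6 ± 5.67), PBS (29.6 ± 3.08) and EGF+OSM+TGFB (21.7 ± 3.97). Overlap with the next group was seen for EGF, OSM, EGF+TGFB, T0 and TGFB.

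The first comparison, PBS against T0, shows the change over 24 h without any ligand. FOS was 2.81-fold higher in PBS (log2 difference 1.49 ± 0.10 SE; quasi-likelihood test of edgeR, adjusted p = 9.07e-11 by the Benjamini-Hochberg method over all genes tested). ATF3, JUNB, JUN, FOSB and FOSL2 rose between 1.37-fold (FOSL2) and 1.76-fold (ATF3). In all, 6 of the 9 genes were called at an adjusted p under 0.05, all 6 higher, where 35.1% of all tested genes were called (16.2% higher and 18.9% lower). FOSL1 (log2 -0.17), JUND (0.27) and EGR1 (-0.41) did not pass the test. The FOSB call (log2 0.49, edgeR adjusted p = 0.0312) was lost without the filter on low counts (0.0782) and without any 1 of T0 replicates 1, 2 and 3 or PBS replicates 2 and 3 (0.066 to 0.12), and EGR1 would be called lower without T0 replicate 1 (0.00438).

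With EGF alone, against PBS, FOSL1 and EGR1 rose and 6 others fell. FOSL1 rose 10.1-fold (log2 difference 3.33 ± 0.13 SE; edgeR adjusted p = 8.62e-16) and EGR1 3.65-fold (1.87 ± 0.17; adjusted p = 3.52e-09). FOSL2 was 4.58-fold lower (-2.20 ± 0.08; edgeR adjusted p = 4.87e-17) and ATF3 3.78-fold lower (-1.92 ± 0.24). The others that fell were FOSB (-1.27), JUNB (-0.90), FOS (-0.72) and JUND (-0.58), while JUN gave 0.13 with a 95% interval of -0.14 to 0.40. Thus 8 of the 9 genes were called, 2 higher and 6 lower, beside 73.5% of all tested genes (34.9% higher and 38.6% lower), so that the count itself is near the background. Their median log2 difference was -0.72, against -0.07 over all tested genes.

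With OSM alone, against the same PBS libraries, FOSL1 (4.82-fold), EGR1 (3.51-fold), JUN (2.72-fold), FOS (2.08-fold) and JUNB (1.44-fold) rose. FOSB was 2.73-fold lower and JUND 1.57-fold lower. FOSL2 (log2 -0.08, 95% interval -0.25 to 0.08) and ATF3 (-0.24, -0.69 to 0.22) did not pass the test. These are 7 of 9 genes called, 5 higher and 2 lower, where 63.4% of all tested genes were called (33.5% higher and 29.8% lower). The adjusted p from edgeR of the 7 calls ran from 6.52e-13 (FOSL1) to 0.000595 (JUND).

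With TGFB alone, JUN rose 2.32-fold (log2 1.21 ± 0.13 SE; edgeR adjusted p = 1.52e-07) and ATF3 1.83-fold (0.87 ± 0.21; edgeR adjusted p = 0.00235). FOSL2 was 1.22-fold lower (-0.29 ± 0.08; edgeR adjusted p = 0.0059), with 445 to 465 CPM against 543 to 567 CPM in PBS. FOSL1 was called 1.34-fold higher (edgeR adjusted p = 0.019, range over the alternatives 0.00396 to 0.11). That call was lost without the filter on low counts (0.0572), with limma-voom (0.0585), and without PBS replicate 2 (0.0556), PBS replicate 3 (0.0924) or TGFB replicate 1 (0.11). FOS, FOSB, JUNB, JUND and EGR1 did not pass the test, with log2 differences between -0.10 and 0.19. TGFB thus called 4 of 9 genes, 3 higher and 1 lower, beside 35.6% of all tested genes (19.9% higher and 15.8% lower).

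**Figure D3:**
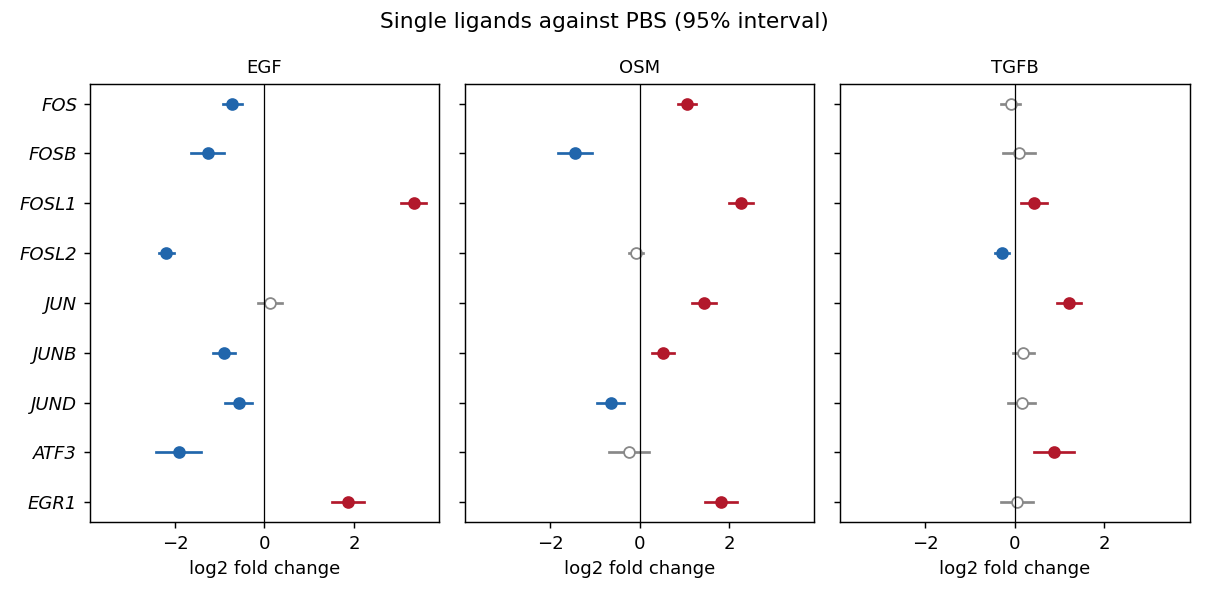
Log2 fold change against PBS (x axis) of each gene for EGF, OSM and TGFB alone, with 95% intervals over 3 libraries a group. Red points are called higher, blue lower and open points are not called. FOSL1 lies furthest to the right with EGF (3.33), FOSL2 is lowered by EGF (-2.20) and not by OSM (-0.08), and JUN is raised by OSM (1.45) and TGFB (1.21) but not called with EGF (0.13).

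Set directly against EGF, OSM gave higher FOSL2 (4.33-fold), FOS (3.42-fold), ATF3 (3.20-fold), JUNB (2.69-fold) and JUN (2.49-fold), and FOSL1 was 2.09-fold lower. The adjusted p from edgeR of these 6 ran from 1.27e-16 (FOSL2) to 2.94e-06 (ATF3). EGR1 (log2 -0.06, 95% interval -0.40 to 0.28), JUND (-0.07, -0.38 to 0.24) and FOSB (-0.18, -0.58 to 0.22) did not pass the test. In this comparison 6 of 9 genes were called, 5 higher and 1 lower, against 56.8% of all tested genes (28.0% higher and 28.8% lower).

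Each combination was also set against PBS, which all these comparisons share. EGF+OSM changed all 9 genes: FOSL1 (13.9-fold), EGR1 (1.87-fold), FOS (1.62-fold) and JUN (1.33-fold) rose, and ATF3 (4.78-fold), FOSL2 (3.62-fold), FOSB (3.52-fold), JUND (2.45-fold) and JUNB (1.53-fold) fell. All tested genes were called in 77.2% of cases here (37.6% higher and 39.6% lower). The JUN call (log2 0.41, edgeR adjusted p = 0.00723) was lost without EGF+OSM replicate 1 (0.0657). EGF+TGFB raised FOSL1 (6.94-fold), JUN (2.49-fold) and EGR1 (1.63-fold) and lowered FOSL2 (2.74-fold), FOSB (2.67-fold) and FOS (2.21-fold). JUNB, JUND and ATF3, each lower with EGF alone, gave log2 -0.14, -0.16 and -0.28 and did not pass the test. These are 6 of 9 genes, 3 in each direction, beside 73.7% of all tested genes (36.2% higher and 37.5% lower).

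OSM+TGFB raised JUN (4.68-fold), FOSL1 (3.73-fold), EGR1 (3.26-fold), JUNB (1.74-fold) and FOS (1.39-fold) and lowered FOSB (2.71-fold) and JUND (1.55-fold). FOSL2 and ATF3 gave log2 -0.05 and 0.37. With this pair 7 of 9 genes were called, 5 higher and 2 lower, beside 66.0% of all tested genes (34.2% higher and 31.8% lower). EGF+OSM+TGFB raised FOSL1 (6.62-fold) and JUN (3.33-fold) and lowered FOSB (6.98-fold), ATF3 (2.06-fold), FOSL2 (2.01-fold) and JUND (1.70-fold). Smaller calls were JUNB higher (log2 0.33, edgeR adjusted p = 0.0135), FOS lower (-0.25, adjusted p = 0.0256) and EGR1 lower (-0.45, adjusted p = 0.0285). All 9 genes were called, 3 higher and 6 lower, beside 74.4% of all tested genes (37.7% higher and 36.7% lower).

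Those smaller calls rested on few libraries. For EGR1, the adjusted p over the alternatives, DESeq2 and limma-voom among them, ran from 0.0084 to 0.124, and the call was lost without the filter on low counts (0.0573), without PBS replicate 3 (0.11), and without EGF+OSM+TGFB replicate 1 (0.0882) or replicate 3 (0.124). For FOS, the call was lost without PBS replicate 2 (edgeR adjusted p = 0.101) or EGF+OSM+TGFB replicate 3 (adjusted p = 0.162). For JUNB, it was lost with upper-quartile scaling (edgeR adjusted p = 0.0748) and without PBS replicate 1 (adjusted p = 0.0893) or EGF+OSM+TGFB replicate 2 (adjusted p = 0.117).

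The comparisons of a combination with the ligand it contains show what each added ligand did. Added to EGF, TGFB lowered EGR1 (2.23-fold), FOSL1 (1.45-fold) and FOS (1.34-fold) and raised ATF3 (3.12-fold), JUN (2.28-fold), JUNB (1.70-fold), FOSL2 (1.68-fold) and JUND (1.33-fold). FOSB alone did not pass the test (log2 -0.15, 95% interval -0.55 to 0.25). Of the 9 genes, 8 were called, 5 higher and 3 lower, where 54.6% of all tested genes were (27% higher and 27.7% lower). JUND was the weakest of these (edgeR adjusted p = 0.0208), and its call was lost without EGF replicate 1 (0.0639) or EGF+TGFB replicate 2 (0.0832).

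Added to EGF+OSM, TGFB called all 9 genes, in the same direction as on EGF for the 8 called there. EGR1 was 2.56-fold lower, FOSL1 2.10-fold, FOSB 1.98-fold and FOS 1.93-fold. JUN (2.51-fold), ATF3 (2.32-fold), JUNB (1.92-fold), FOSL2 (1.80-fold) and JUND (1.45-fold) were higher. The adjusted p from edgeR ran from 1.49e-09 (FOSL2) to 0.00472 (JUND), and 61.1% of all tested genes were called (31.6% higher and 29.5% lower). The 2 comparisons share no library.

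Added to OSM, TGFB raised JUN 1.72-fold (log2 0.78 ± 0.13 SE; edgeR adjusted p = 2.21e-05) and lowered FOS 1.502-fold (-0.59 ± 0.10; adjusted p = 1.28e-05). FOSL1 (log2 -0.37, edgeR adjusted p = 0.0117), ATF3 (0.61, adjusted p = 0.023) and JUNB (0.27, adjusted p = 0.0498) were also called. The first of these was lost without OSM replicate 3 (0.0993) or OSM+TGFB replicate 2 (0.0765). ATF3 was lost without the filter on low counts (0.0531), without OSM replicate 1 (0.0562) or 3 (0.119), and without OSM+TGFB replicate 1 (0.0926) or 2 (0.0913). JUNB sat at the threshold and was lost under upper-quartile scaling (0.0852), without the filter (0.109), with rows as deposited (0.0524) and with limma-voom (0.0531), and without many single libraries (up to 0.238). EGR1, which TGFB lowered on EGF, gave log2 -0.11 here, with a 95% interval of -0.45 to 0.23. Of the 9 genes 5 were called, 3 higher and 2 lower, where 51.6% of all tested genes were (26.1% higher and 25.6% lower).

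**Figure D4:**
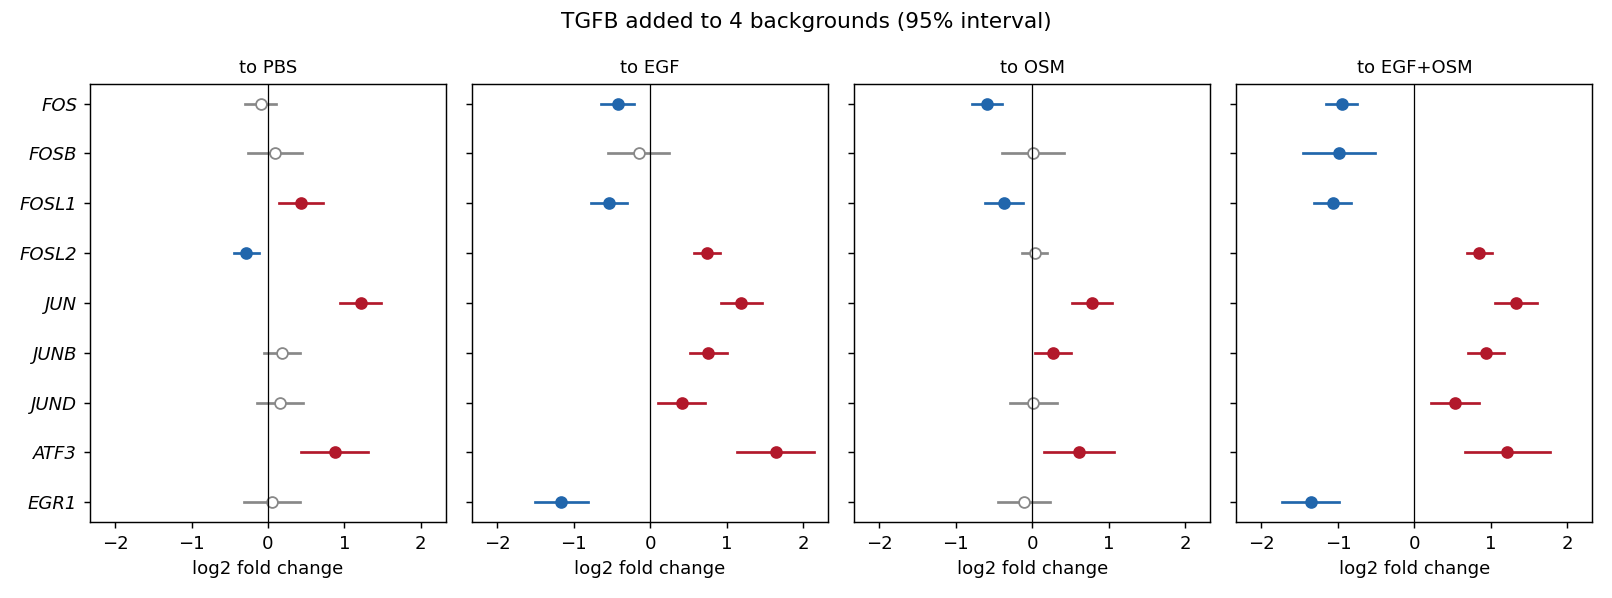
Log2 fold change (x axis) of each gene when TGFB is added to PBS, EGF, OSM or EGF+OSM, with 95% intervals over 3 libraries a group; red is called higher, blue lower and open not called. EGR1 is lowered on EGF (-1.16) and EGF+OSM (-1.36) and not called on PBS (0.05) or OSM (-0.11), whereas JUN is raised on all 4 backgrounds (0.78 to 1.33).

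Added to EGF, OSM raised FOS (2.67-fold), FOSL1 (1.38-fold) and FOSL2 (1.27-fold) and lowered EGR1 (1.95-fold), JUND (1.64-fold) and FOSB (1.46-fold). JUN (log2 0.28), JUNB (0.29) and ATF3 (-0.34) did not pass the test. JUNB (edgeR adjusted p = 0.0535) would be called with DESeq2 (adjusted p = 0.0343) and without any 1 of several single libraries (down to 0.0256). In turn, the FOSB call (edgeR adjusted p = 0.0325) was lost without the filter (0.0853), without EGF replicate 2 (0.107) or 3 (0.0541) and without EGF+OSM replicate 1 (0.15) or 2 (0.0909). Of the 9 genes 6 were called, 3 in each direction, beside 34.9% of all tested genes (17.8% higher and 17.1% lower). Added to OSM, EGF raised FOSL1 alone (2.89-fold) and lowered 7 genes: ATF3 (4.05-fold), FOSL2 (3.42-fold), JUNB (2.19-fold), JUN (2.05-fold), EGR1 (1.87-fold), JUND (1.56-fold) and FOS (1.28-fold). FOSB gave log2 -0.37 and did not pass the test. These 8 calls, 1 higher and 7 lower, stand beside 61.7% of all tested genes (29.9% higher and 31.8% lower). EGR1 was thus lower in EGF+OSM than with either ligand alone, with edgeR adjusted p = 0.000106 against EGF and adjusted p = 7.54e-05 against OSM.

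The difference between a combination and the sum of its parts was tested itself. The single-ligand log2 differences from PBS were added up and taken away from that of the combination. The remainder, called the departure, is 0 when fold changes multiply. It can differ from 0 where levels in CPM add. For EGF+OSM, EGR1 departed by -2.77 ± 0.24 SE (edgeR adjusted p = 9.28e-09), FOSL1 by -1.80 ± 0.17 (adjusted p = 1.55e-08) and JUN by -1.17 ± 0.18 (adjusted p = 2.47e-05). FOSB (0.90 ± 0.27), FOSL2 (0.42 ± 0.11) and FOS (0.36 ± 0.14) departed upwards. Of the 9 genes, 6 departed, 3 in each direction, where 38.7% of all tested genes did (15.7% upwards and 23.0% downwards). The FOS departure (edgeR adjusted p = 0.0419) was lost with rows as deposited (0.0503) and on leaving out any 1 of 9 single libraries among PBS, EGF, OSM and EGF+OSM (0.056 to 0.104), and the FOSB departure (edgeR adjusted p = 0.00956) without EGF+OSM replicate 3 (0.0505).

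For EGF+TGFB, EGR1 departed by -1.21 ± 0.24 SE (edgeR adjusted p = 0.000724) and FOSL1 by -0.96 ± 0.18 (adjusted p = 0.000309). FOSL2 departed by 1.03 ± 0.11 (edgeR adjusted p = 3.67e-07) and JUNB by 0.57 ± 0.16 (adjusted p = 0.00996). These are 4 of 9 genes, 2 in each direction, beside 29.8% of all tested genes (13.3% upwards and 16.5% downwards). ATF3 gave 0.77 with a 95% interval of 0.10 to 1.44 and did not pass the test (edgeR adjusted p = 0.0774). It would pass without EGF+TGFB replicate 3 (0.0293) or with the replicate number as a block (0.00114). For OSM+TGFB, FOSL1 departed by -0.80 ± 0.18 SE, FOS by -0.49 ± 0.14 and FOSL2 by 0.32 ± 0.11. The FOSL2 departure (edgeR adjusted p = 0.0424) was lost without any 1 of PBS replicates 1, 2 and 3, OSM replicates 1 and 3, TGFB replicates 1, 2 and 3 and OSM+TGFB replicates 1 and 2 (0.0531 to 0.139). This pair gave 3 of 9 genes, 1 upwards and 2 downwards, beside 23.3% of all tested genes (9.61% upwards and 13.7% downwards). EGR1 gave -0.16 for OSM+TGFB, with a 95% interval of -0.65 to 0.34.

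For all 3 ligands, EGR1 departed by -4.18 ± 0.36 SE (edgeR adjusted p = 8.39e-09), so that its level was 18.1-fold below that at which the 3 single fold changes multiply. FOSL1 departed by -3.30 ± 0.27 (edgeR adjusted p = 1.2e-09), JUN by -1.05 ± 0.26 (adjusted p = 0.00203) and FOSL2 by 1.56 ± 0.16 (adjusted p = 1.32e-08). FOS departed by -0.50 ± 0.20 (edgeR adjusted p = 0.0409), a call lost with upper-quartile scaling (0.0684), without the filter (0.082), and without single libraries of PBS (replicates 1 and 3), EGF (1), OSM (1 and 2), TGFB (2), EGF+TGFB (3) and EGF+OSM+TGFB (3), with adjusted p from 0.0528 to 0.12. Of the 9 genes 5 departed, 1 upwards and 4 downwards, where 48.0% of all tested genes did (22.0% upwards and 25.9% downwards). FOSL1 departed downwards and FOSL2 upwards in all 4 combinations, although the FOSL2 call for OSM+TGFB was lost without most single libraries of its groups. With all libraries and no replicate block in the fit, JUND and ATF3 passed the test of departure in none of the 4, with estimates between -0.26 and 0.77. All departures draw on the same PBS libraries and, for each ligand, on the same single-ligand libraries.

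**Figure D5:**
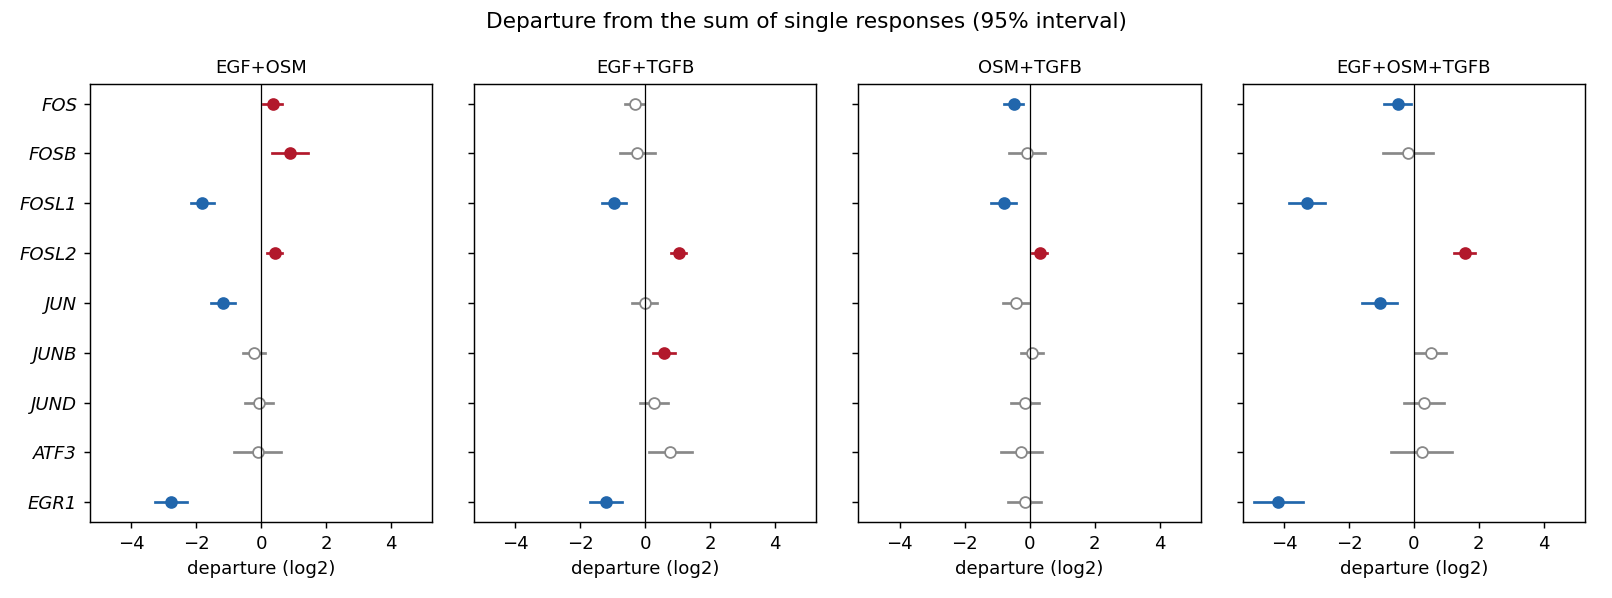
Departure (log2, x axis) of each gene from the sum of the single-ligand responses in EGF+OSM, EGF+TGFB, OSM+TGFB and EGF+OSM+TGFB, with 95% intervals over 3 libraries a group; red is called upwards, blue downwards and open not called. EGR1 lies furthest from 0 with EGF+OSM (-2.77) and with all 3 ligands (-4.18), and is not called with OSM+TGFB (-0.16).

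Other genes of the pathway were read from 5 lists, without a set test. Among 24 AP-1 target genes, EGF called 20 higher and 3 lower, OSM 16 and 3, and TGFB 19 and 0, all against PBS. Over all tested genes, the shares called higher and lower were 34.9% and 38.6% (EGF), 33.5% and 29.8% (OSM), and 19.9% and 15.8% (TGFB), and the counts of all 5 lists are to be read against these. The collagenase gene MMP1 had no count in any PBS library, stood at 3.26 ± 0.590 CPM with EGF, and was at least 45.9-fold higher with EGF, taking 3 counts per library as the floor for PBS. The stromelysin genes MMP3 and MMP10 averaged 0.00719 ± 0.0125 and 0.0652 ± 0.0536 CPM over the PBS libraries. MMP3 reached 9.29 ± 2.55 CPM with OSM and 67.3 ± 14.7 with OSM+TGFB, and MMP10 9.04 ± 1.79 with EGF and 23.3 ± 7.76 with EGF+TGFB. The median log2 difference over the 24 stood at 1.97 (EGF), 1.56 (OSM) and 1.58 (TGFB), and at 1.54, 1.32 and 1.38 with the 3 genes of fewest counts set at their bound, beside medians over all tested genes of -0.07, 0.00 and -0.01.

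Among 15 tested AP-1 dimer partners and other small leucine-zipper factors (BATF was not tested), EGF called 5 higher and 9 lower, OSM 5 and 7, and TGFB 4 and 3, beside 73.5%, 63.4% and 35.6% of all tested genes called in either direction. MAF, a leucine-zipper factor, held 12.8 ± 2.03 CPM in PBS libraries, 0.916 ± 0.316 in EGF libraries and 61.4 ± 16.3 with OSM+TGFB. BATF3, a partner of JUN proteins in dendritic cells, stood at 0.0631 ± 0.0378 CPM in PBS and 2.28 ± 0.342 with OSM. The median log2 differences were -0.49 (EGF), -0.20 (OSM) and 0.15 (TGFB), against -0.07, 0.00 and -0.01 over all tested genes.

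Among 11 genes of the EGR family, its NAB corepressors and SRF with its cofactors, EGF called 5 higher and 4 lower, OSM 6 and 3, and TGFB 3 and 1, at medians of 0.04, 0.22 and 0.11. With 73.5%, 63.4% and 35.6% of all tested genes called, these counts are near the background. EGR3 did not follow EGR1: it fell from 10.5 ± 1.104 CPM in PBS to 3.81 ± 0.626 with EGF and 1.22 ± 0.156 with OSM (log2 -3.10 ± 0.22 SE; edgeR adjusted p = 5.92e-12). EGR2 and EGR4 stayed below 1 CPM on average in each group, at 0.157 ± 0.0119 and 0.116 ± 0.0383 CPM in PBS. EGR2 was at 0.579 ± 0.0338 CPM with OSM and EGR4 at 0.444 ± 0.0904 CPM with EGF.

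Among 27 tested other immediate early genes (ARC was not tested), EGF called 14 higher and 9 lower, OSM 16 and 9, and TGFB 16 and 2, at medians of 0.23, 0.40 and 0.38. The share of all tested genes called was 73.5% with EGF (34.9% higher), 63.4% with OSM (33.5% higher) and 35.6% with TGFB (19.9% higher). CCN2 and CCN1, which encode matricellular proteins, were called higher with each of the 3 ligands. CCN2 rose from 1.94 ± 0.363 CPM in PBS to 32.0 ± 3.34 (EGF), 6.97 ± 1.37 (OSM) and 28.2 ± 0.963 (TGFB), and reached 146 ± 15.3 with EGF+TGFB. CCN1 rose from 6.50 ± 0.649 to 53.8 ± 1.1 with EGF, 16.7 ± 2.16 with OSM and 29.1 ± 1.09 with TGFB. GADD45G, a stress and growth-arrest gene, was at 1.65 ± 0.278 CPM in PBS and 0.161 ± 0.121 with OSM. Among 13 MAP kinase genes, EGF called 6 higher and 7 lower, OSM 4 and 5, and TGFB 3 and 3, at medians of -0.16, 0.06 and -0.01, beside the same 73.5%, 63.4% and 35.6% of all tested genes. MAPK3, which encodes ERK1, fell with EGF from 43.7 ± 3.43 to 20.9 ± 2.26 CPM (log2 -1.07), BRAF from 38.2 ± 1.33 to 20.5 ± 0.819 (-0.89) and MAPK10, which encodes JNK3, from 4.56 ± 0.422 to 1.88 ± 0.199 (-1.28).

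Patterns over the 9 groups were compared by Pearson's r of mean log2 CPM, as a description over 9 points that share libraries. Among the genes of the set, r was 0.84 for JUN with JUNB, 0.82 for FOSL2 with ATF3, -0.80 for FOSB with FOSL1 and -0.78 for FOSL1 with FOSL2. EGR1 reached at most 0.45 in size, with FOSL1. Of all other tested genes, those most like each were ZNF614 (0.96) and HDAC4 (0.94) for FOS, PXYLP1 (0.99) and RASEF (0.98) for FOSB, PUF60 and CCDC137 (0.99) for FOSL1, IQSEC2 and SAMD11 (both 0.98) for FOSL2, FAM13B and FUNDC2 (both 0.98) for JUN, CIC and TEAD3 (both 0.97) for JUNB, CLDN4 and HSPG2 (both 0.98) for JUND, and FAM193A and FAM160B1 (both 0.98) for ATF3. PUF60, with the highest r of the set at 0.997, ranged from 112 CPM in PBS to 234 CPM in EGF+OSM, where FOSL1 also had its lowest and highest means. For EGR1 the nearest were URM1 (0.95), which stayed between 37.9 and 45.3 CPM, and SLCO5A1 (0.86), at 0.187 to 0.705 CPM.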

How the data were processed

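RNA-seq was measured in 27 libraries, grouped by their labels. The deposited values are estimated counts per gene, whole numbers in 40487 rows, of which 7165 had no symbol and held 0.324% of the counts. The submitters' processing notes name Trim Galore 0.4.3, cutadapt 1.10, FastQC 0.11.5, kallisto 0.46.2 and R 3.5.0, and the builds GRCh38.p5 and hg38, with no role or order. How counts were made from them is not given in the sources used here. Estimated counts were rounded to whole numbers, which changed nothing. Rows sharing a symbol were summed to 36536 genes.

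The tests used edgeR 4.0.16 and limma 3.58.1 in R 4.3.3. The filter filterByExpr by group left 15575 genes, and TMM factors ran from 0.867 to 1.12. A quasi-likelihood fit with a mean for each group (glmQLFit, robust, 18 residual degrees of freedom, common biological coefficient of variation 7.83%) gave every contrast, fold changes with a prior count of 0.125, and Benjamini-Hochberg adjusted p-values over all 15575 genes. Calls are at an adjusted p under 0.05. It was tested on simulated data. Alternatives were relative log expression and upper-quartile factors, no filter, rows as deposited, DESeq2 1.42.0, limma-voom, the replicate number as a block, and leaving out each library. Replicates differed by more than sampling noise (chi-square per degree of freedom 6.84 to 33.9). The labels name no molecular identifiers, and reads are not independent molecules, so counting noise is at least that of the counts.

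The genes and lists were chosen with earlier results of these data known. Every gene of the set is reported in every group. Named besides are, per list, the 3 called genes with the largest log2 difference for a single ligand, and, per gene of the set, the 2 most alike in pattern. No set test was run. A gene that this rule names is not reported here.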

Additional observations from a re-analysis of the deposited data

Results flagged for a closer look

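The 13 departures of a ligand pair from the sum of its single log2 responses that passed edgeR's test are collected here. Each means that 1 ligand's fold change of the gene differed with the other present. It does not by itself mean that levels in CPM failed to add, and the genes differed in this. FOSL1 means were 8.86 CPM in PBS, 89.3 in EGF, 42.7 in OSM and 123 in EGF+OSM, close to what adding levels gives. EGR1 means were 29.6 CPM in PBS, 108 in EGF, 104 in OSM and 55.3 in EGF+OSM. JUN means in the same groups were 61.2, 66.9, 167 and 81.2 CPM. FOSL1 in EGF+TGFB (61.6 CPM) lay below EGF alone, although its TGFB mean (11.9 CPM) was above PBS. In these last cases levels in CPM did not add. For EGF+OSM the departures were EGR1 (-2.77 on the log2 scale), FOSL1 (-1.80), JUN (-1.17), FOS (0.36), FOSL2 (0.42) and FOSB (0.90). For EGF+TGFB they were EGR1 (-1.21), FOSL1 (-0.96), JUNB (0.57) and FOSL2 (1.03). For OSM+TGFB they were FOSL1 (-0.80), FOS (-0.49) and FOSL2 (0.32). FOSL1 and FOSL2 were the genes that departed in all 3 pairs, FOSL1 downwards and FOSL2 upwards. The FOSL2 departure for OSM+TGFB was lost without most single libraries of its groups (edgeR adjusted p up to 0.139). The FOS departure for EGF+OSM was lost with rows as deposited and without several single libraries (up to 0.104). The FOSB departure for EGF+OSM was lost without EGF+OSM replicate 3 (0.0505). EGR1 departed in both pairs with EGF.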

How the results depend on the processing

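Of 116 calls among 162 values (9 genes in 18 comparisons), 107 held under all 7 alternatives that keep every library and 101 also without each of the 27 libraries. Of 5508 recomputed values, 5361 kept direction and side of the threshold, 90 lost a call, 27 gained one and 30 turned direction, none of these a called value. With TGFB added to OSM, the genes called went from 5 to 3 without the filter on low counts and ranged from 2 to 5 on leaving out a library. The cause was not tested. The values near 0 that changed sign under upper-quartile factors were FOSB (-0.021) and JUND (-0.0134) with TGFB added to OSM, and without the filter the JUN departure of EGF+TGFB (0.0221).

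Leaving out 1 library moved uncalled log2 differences across 0. Against PBS, they ranged from -0.1694 to 0.0138 for FOSL2 with OSM, from -0.094 to 0.0063 for FOSL2 with OSM+TGFB, from -0.0034 to 0.1977 for FOSB with TGFB and from -0.111 to 0.1383 for EGR1 with TGFB. For OSM against EGF the ranges were -0.1219 to 0.0051 (JUND) and -0.148 to 0.0753 (EGR1). For TGFB added to OSM they were -0.1821 to 0.1321 (FOSB), -0.0653 to 0.1181 (FOSL2) and -0.1161 to 0.147 (JUND). Departures ranged from -0.1435 to 0.0522 (JUND) and -0.3784 to 0.0838 (ATF3) for EGF+OSM, from -0.0879 to 0.0797 (JUN) for EGF+TGFB, from -0.2738 to 0.0406 (FOSB), -0.0042 to 0.1789 (JUNB) and -0.2896 to 0.0042 (EGR1) for OSM+TGFB, and from -0.3225 to 0.0127 (FOSB) for all 3 ligands.

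Replicate numbers are shared between groups, but the labels do not say that they pair libraries. Over 108 same-numbered pairs the correlation of deviations from group means ran from -0.0265 to 0.178 (median 0.0574), with 23 over 0.1, although 26 of 27 libraries correlated best with their own number. With the replicate number as a block, the genes called were 7 in place of 6 for EGF+TGFB, 8 in place of 7 for OSM+TGFB, 4 in place of 5 for TGFB added to OSM, and 5 in place of 4 for the EGF+TGFB departure. ATF3 was the gene gained in the other 3 (its EGF+TGFB departure 0.78, adjusted p = 0.00114) and JUNB the gene lost with TGFB added to OSM. FOSB in EGF+OSM+TGFB rests on 10 to 22 counts a library, which limits its precision.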
